A study of Mus musculus with 8 samples.

Results

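Cytosolic ribosomal proteins are described here through the array probes whose gene name begins with Rpl or Rps followed by a number, leaving out the Rps6k kinases. The rule found 135 probes under 82 gene names, among 41174 probes and 27398 gene names that are not controls. A probe was kept when some group had it well above background on both of its arrays, which 131 of the 135 probes met. All 82 names kept at least 1 probe, among 15401 gene names tested. The 82 names were 43 proteins of the large subunit (60S), 30 of the small subunit (40S), 7 paralogs, the pseudogene name Rps19-ps4 and Rps19bp1, which encodes a binding partner of Rps19 and not a ribosomal protein.

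The cytosolic ribosome is built from ribosomal RNA and one copy of most ribosomal proteins. The 40S subunit decodes the mRNA and the 60S subunit joins amino acids into the chain. mRNAs of ribosomal proteins carry a 5′ terminal oligopyrimidine tract (TOP), a run of C and U at the first base through which mTORC1 signalling controls their translation as a group. Activated dendritic cells raise protein synthesis early after a microbial signal, and a few ribosomal proteins also have tasks off the ribosome, such as Rps3 as an NF-kB partner.

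RNA came from sorted dendritic cells grown from bone marrow of male C57BL/6Jax mice, kept for 7 days in GM-CSF, a growth factor for myeloid cells, at 40 ng/mL. The 4 groups were miR-155 knockout (KO) cells and wild type (WT) cells exposed to 100 ng/mL lipopolysaccharide (LPS, a bacterial cell wall component) for 16 h, and unstimulated KO and WT cells, with 2 one-colour Agilent arrays each. LPS cells were sorted as CD86-positive and adherent, unstimulated cells as CD86-negative, so that LPS and the sort gate cannot be told apart. The labels give neither the knockout allele nor the animals or cultures behind the replicates, so that p-values measure only the spread between these arrays. All values are log2 processed signal minus the 75th percentile of the array, called scaled log2 signal. A signal is compared only with the same probe on other arrays, except where probes are ranked by brightness.

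Between 50.8% and 58.3% of the spots on an array were well above background, the 75th percentile of the processed signal was 474 to 750 intensity units, and no spot was saturated. All 10 dendritic cell markers measured were well above background on both arrays of every group. The same held in both unstimulated groups for all 9 macrophage and all 6 monocyte markers measured. In both LPS groups it held for 8 of the macrophage and 4 of the monocyte markers. The arrays lay on 2 slides, with both WT unstimulated arrays on 1 and both KO LPS arrays on the other. In bulk RNA, fewer cells of a type and less RNA per cell cannot be told apart.

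No probe was named for miR-155 or its host transcript, so that the deletion was not checked in these arrays. The mature miRNA is shown in RNA letters from RefSeq (GRCm38.p6, chromosome 16, 84714143 to 84714165, plus strand), with its seed, bases 2 to 8, in capitals because a target mRNA pairs there.
mmu-miR-155-5p: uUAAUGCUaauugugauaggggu
The DNA letters that pair with this seed, AGCATTA, stood in none of the 135 member probes and in 0.425% of the 41174 probes. The probes cover 60 bases of each transcript, so that the rest of the member mRNAs was not searched.

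The 3 members called after LPS were the same in KO and WT cells, and all 3 fell. The mean processed signals of their probes, 1179 for Rpl14, 6381 for Rpl27a and 41.6 for Rpl3l, were below those of most names. The brightest probes of Rpl21 (3292) and Rpl31 (2248) were dim too and were not called. Whether brightness bears on the calls was not tested. Rpl14 and Rpl27a are proteins of the 60S subunit, and Rpl3l is a paralog of Rpl3 known from skeletal muscle and heart. Their 60-base probes are shown as the files give them, with Rpl14 at chr9:120483689-120483748, Rpl27a at chr7:116665756-116665815 and Rpl3l split within chr17:24872413-24872681 (mm9, plus strand).
Rpl14: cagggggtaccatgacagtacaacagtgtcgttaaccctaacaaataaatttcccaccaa
Rpl27a: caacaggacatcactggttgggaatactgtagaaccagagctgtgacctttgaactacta
Rpl3l: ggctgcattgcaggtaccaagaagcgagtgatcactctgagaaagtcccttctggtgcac

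Rpl14 had scaled log2 signals of -0.37 and -0.07 in KO LPS cells, against 1.58 and 0.99 in KO unstimulated cells. In WT cells the signals were -0.07 and -0.03 after LPS, against 1.83 and 1.46 unstimulated. The LPS arrays thus lay below the unstimulated arrays in both genotypes, with no overlap. The difference was -1.50 ± 0.31 in KO cells (SE, n = 2 arrays a group, limma adjusted p = 0.0161) and -1.69 ± 0.31 in WT cells (limma adjusted p = 0.0111). With the slide as a block, Rpl14 alone of the 82 names was called in each genotype. In that fit 7.03% of all genes were called lower in KO cells and 7.05% in WT cells.

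Rpl27a had 2.35 and 2.86 in KO LPS cells, against 3.85 and 3.59 in KO unstimulated cells. WT cells had 2.46 and 3.04 after LPS, against 3.85 and 3.92 unstimulated. The groups did not overlap in either genotype. The difference was -1.11 ± 0.32 in KO cells (limma adjusted p = 0.0486) and -1.13 ± 0.32 in WT cells (limma adjusted p = 0.0471).

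Rpl3l, whose probe was well above background on 1 of 2 KO LPS arrays and on all others, had -5.02 and -4.48 in KO LPS cells, against -3.79 and -3.58 in KO unstimulated cells. WT cells had -4.66 and -4.43 after LPS, against -3.27 and -3.03 unstimulated. The LPS arrays were the lower ones in both genotypes, again without overlap. The difference was -1.06 ± 0.29 in KO cells (limma adjusted p = 0.0435) and -1.39 ± 0.29 in WT cells (limma adjusted p = 0.0181). Leaving out a single array of a comparison, or keeping only 1 slide, leaves 1 array in a group. Such fits called fewer members and also fewer genes over the whole array. They thus cannot show how far the member calls rest on a single array.

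Across the whole array, 10.5% of genes were called lower after LPS in KO cells and 10.7% in WT cells, beside 3 of the 82 ribosomal protein names in each. Genes called higher made up 10.4% in KO cells and 9.48% in WT cells, beside 0 of the 82 names by limma. At an unadjusted p under 0.05, 9 names passed in KO cells, 1 of them higher, and 17 in WT cells, all lower, beside 34.2% and 34.7% of all genes in either direction. The share of names called lower depended on the scaling. With quantile normalization 18 names were called lower in KO cells and 16 in WT cells, which is 22% and 19.5% of the names, beside 12.2% and 11.8% of all genes. Shares of names and of all genes were not tested against each other. The difference after LPS was negative for 72 of 82 names in KO cells and 74 of 82 in WT cells, with medians of -0.37 and -0.53 beside 0.05 and 0.00 over all genes. The medians stayed negative under the array median, quantile and normexp scalings. They lay near 0, at -0.02 and 0.0024, when each array was scaled to the median of the 73 proteins of both subunits. That scaling itself sets them near 0, since the 73 are among the 82 names.

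**Figure D1:**
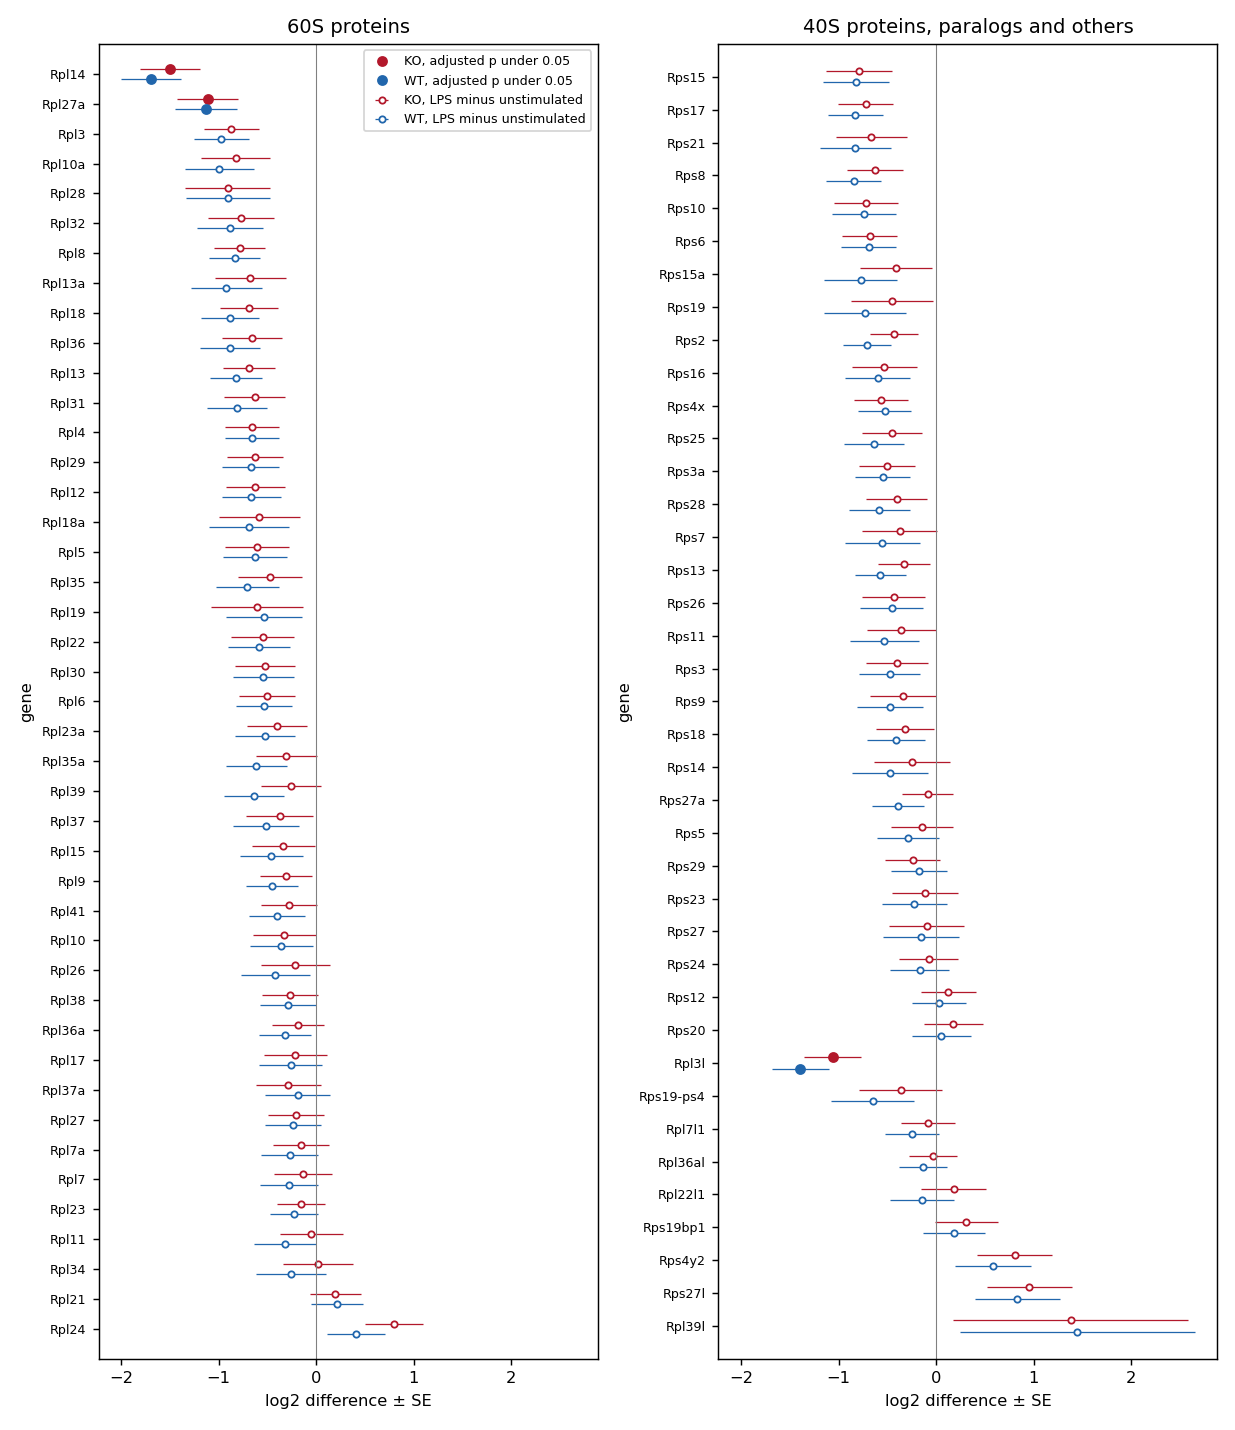
Log2 difference after LPS (x axis, LPS minus unstimulated, ± SE from limma, 2 arrays a group) for each of the 82 gene names (y axis), in KO cells (red) and WT cells (blue), with the 60S proteins on the left and the 40S proteins, paralogs and others on the right. Filled points mark adjusted p under 0.05, which only Rpl14, Rpl27a and Rpl3l reached, and 72 names in KO cells and 74 in WT cells lie left of 0.

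Both LPS arrays lay below both unstimulated arrays for 58 of 82 names in KO cells, beside 30.4% of all genes, and for 42 of 82 names in WT cells, beside 32% of all genes. The names shifted together from array to array. The median signal of the 82 names was 6.85 and 7.11 on the KO LPS arrays and 6.82 and 7.31 on the WT LPS arrays. It was 7.27 and 7.32 on the KO unstimulated arrays and 7.32 and 7.86 on the WT unstimulated arrays. The pooled SD of this median between arrays of 1 group was 0.277. WT unstimulated replicate 2 stood above all other arrays, and KO LPS replicate 1 and WT LPS replicate 1 stood lowest. Without WT unstimulated replicate 2 the median difference in WT cells was -0.30, and without WT LPS replicate 1 it was -0.26. Without KO LPS replicate 1 the median difference in KO cells was -0.25.

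The same shift was also read by slide, which lay unevenly over the groups. KO LPS replicates 1 and 2, KO unstimulated replicate 1 and WT LPS replicate 1 shared a slide, and within it the median difference after LPS in KO cells was -0.35. On the other slide, WT LPS replicate 2 against both WT unstimulated arrays gave a median of -0.26. The within-slide values are the same comparisons as without KO unstimulated replicate 2 and without WT LPS replicate 1. Slide and single arrays thus cannot be told apart here. With the slide as a block over all 8 arrays the medians were -0.23 in KO cells and -0.37 in WT cells. In that fit 1 member was called lower in each, beside 7.03% and 7.05% of all genes. The direction was the same with and without the slide, and the block made the KO difference smaller by over 1.5 times.

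**Figure D2:**
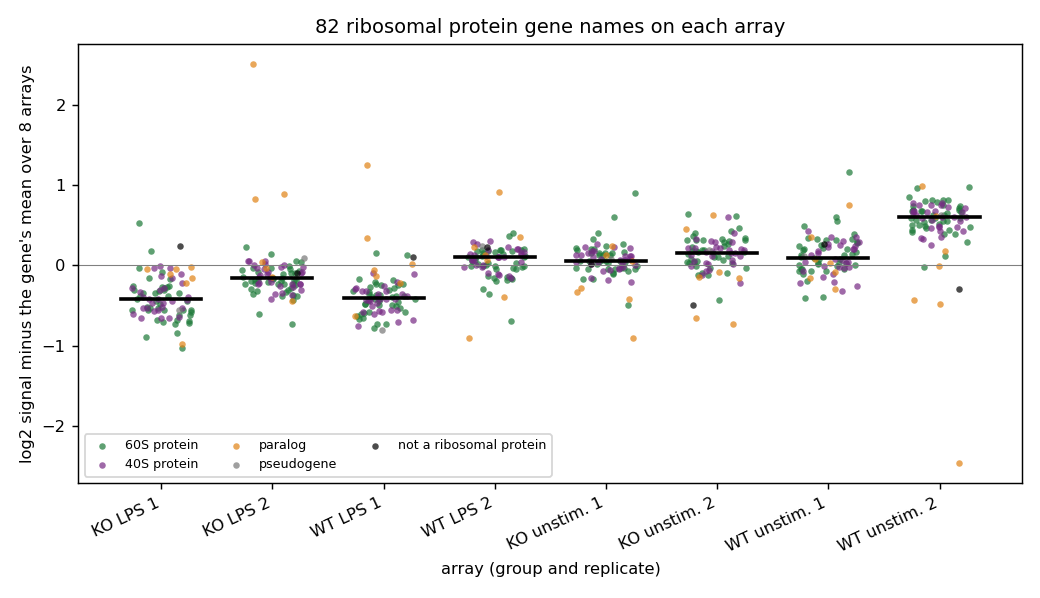
Each point is 1 of the 82 gene names on 1 array (x axis), as scaled log2 signal minus the mean of that gene over the 8 arrays (y axis), coloured by kind of gene, and black bars mark the median. Most points on an array lie close together, WT unstimulated replicate 2 stands above the rest, and the scattered points are mostly paralogs.

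By subunit, the median difference of the 43 60S proteins was -0.47 in KO cells and -0.54 in WT cells. The 30 40S proteins had medians of -0.40 in KO cells and -0.54 in WT cells. Both subunits thus leaned down by a similar amount, with 40 and 41 of the 43 60S proteins and 28 of the 30 40S proteins negative. Within the 40S subunit, the 14 proteins of the head had medians of -0.40 and -0.53, and the 16 of the body and platform had -0.39 and -0.54, in KO and WT cells. The 9 proteins near the peptide exit tunnel had medians of -0.47 and -0.58. By limma 0 proteins of the 40S subunit passed the test as scaled here, with 2 at an unadjusted p under 0.05 in KO cells and 5 in WT cells.

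The 60S proteins with known extra tasks did not pass the test as scaled here, and some did under other settings. With quantile normalization Rpl3 and Rpl13a were called lower in both genotypes, Rpl5 in KO cells and Rpl10a in WT cells. With the mean over probes Rpl5 was called lower in both genotypes, and with the array median Rpl3 was. Rpl5 and Rpl11 bind 5S rRNA and, when free of the ribosome, hold the p53 regulator Mdm2. Rpl5 differed by -0.61 ± 0.33 in KO cells and -0.63 ± 0.33 in WT cells, and Rpl11 by -0.05 ± 0.32 and -0.32 ± 0.32. The lowest limma adjusted p of the 4 differences was 0.229. Rpl10a, which marks a subset of ribosomes in mouse embryonic stem cells, had 4.57 and 5.09 in KO LPS cells, against 5.40 and 5.91 in KO unstimulated cells. In WT cells it had 4.61 and 4.97 after LPS, against 5.48 and 6.09 unstimulated, so that the groups did not overlap, with differences of -0.83 ± 0.36 (limma adjusted p = 0.153) and -0.99 ± 0.36 (limma adjusted p = 0.0971).

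Rpl13a leaves the ribosome in human monocytic cells treated with interferon gamma and then blocks translation of inflammatory mRNAs. It differed by -0.68 ± 0.36 in KO cells and -0.92 ± 0.36 in WT cells (limma adjusted p = 0.240 and 0.123). Rpl38, needed in mice for translation of Hox mRNAs, differed by -0.27 ± 0.29 and -0.29 ± 0.29. Rpl3, a core protein near the peptidyl transferase centre, had 5.31 and 5.18 in KO LPS cells, against 5.98 and 6.26 in KO unstimulated cells. WT cells had 5.37 and 5.44 after LPS, against 6.11 and 6.64 unstimulated. Its LPS arrays were below its unstimulated arrays in both genotypes, and the limma adjusted p of 0.0726 in KO cells and 0.0527 in WT cells stayed above the threshold.

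Of the 40S proteins with known extra tasks, Rps6 is the substrate of the S6 kinases and Rps3 a DNA repair protein and NF-kB partner. Rps6 differed by -0.68 ± 0.28 in KO cells and -0.69 ± 0.28 in WT cells (limma adjusted p = 0.139 and 0.132). Rps3 differed by -0.40 ± 0.31 and -0.48 ± 0.31. Rps19, the protein most often mutated in Diamond-Blackfan anaemia, differed by -0.45 ± 0.42 and -0.73 ± 0.42, and Rps25, used by viral internal ribosome entry sites, by -0.45 ± 0.31 and -0.64 ± 0.31. None of these 4 passed the test in either genotype as scaled here, and Rps6 and Rps3 were called lower in KO cells with quantile normalization.

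A few names had higher signals after LPS, and none of them passed the test. Rpl24, a 60S protein at the bridge between the subunits, was picked out after its values were seen. Its probe at chr16:55967180-55967239 (mm9, plus strand) is shown because it ran against the other 60S proteins.
Rpl24: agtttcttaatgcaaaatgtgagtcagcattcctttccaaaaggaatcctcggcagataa
Rpl24 had 6.86 and 6.48 in KO LPS cells, against 5.84 and 5.91 in KO unstimulated cells. WT cells had 6.47 and 6.75 after LPS, against 5.94 and 6.46 unstimulated. The LPS arrays lay above the unstimulated ones in both genotypes, in WT cells by a narrow margin. The difference was 0.80 ± 0.29 in KO cells (limma adjusted p = 0.104) and 0.41 ± 0.29 in WT cells (limma adjusted p = 0.370). The second Rpl24 probe differed by 0.61 in KO cells and 0.51 in WT cells.

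Rps27l, a paralog of Rps27 that is a known p53 target, had 7.02 and 7.97 in KO LPS cells, against 6.74 and 6.34 in KO unstimulated cells. WT cells had 7.09 and 8.0 after LPS, against 6.77 and 6.65 unstimulated. All LPS arrays lay above all unstimulated arrays, and in both genotypes replicate 2 was the higher LPS array by nearly 1 unit. The difference was 0.96 ± 0.44 in KO cells (limma adjusted p = 0.174) and 0.83 ± 0.44 in WT cells (limma adjusted p = 0.227). Its partner Rps27 differed by -0.10 ± 0.39 and -0.15 ± 0.39. The probes of the pair are shown with their longest shared run in capitals, which was 6 bases, Rps27l split within chr9:66795486-66797176 (plus strand) and Rps27 placed by the file at chr9:114891515-114891574 (minus strand, mm9).
Rps27l: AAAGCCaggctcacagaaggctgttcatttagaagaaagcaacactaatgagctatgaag
Rps27: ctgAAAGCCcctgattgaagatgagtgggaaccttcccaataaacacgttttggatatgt
RefSeq places the Rps27 gene on chromosome 3, so that the file's position is not that of the gene. The same was seen for Rps29, with the probe on chromosome 2 and the gene on chromosome 12.

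Rps4y2, named Rps4l in RefSeq, had 1.37 and 2.35 in KO LPS cells, against 1.24 and 0.86 in KO unstimulated cells. WT cells had 1.86 and 1.88 after LPS, against 1.54 and 1.03 unstimulated. The groups did not overlap, and the differences of 0.81 ± 0.39 and 0.58 ± 0.39 were not called (limma adjusted p = 0.196 and 0.337). Its partner Rps4x, the X-linked 40S protein, differed by -0.56 ± 0.28 and -0.53 ± 0.28.

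Rpl39l, a paralog of the exit tunnel protein Rpl39 known from mouse testis, was the member that varied most. Its signals were -2.12 and 0.44 in KO LPS cells, against -2.99 and -1.45 in KO unstimulated cells. WT cells had -0.83 and -2.98 after LPS, against -2.16 and -4.54 unstimulated, and 1 of the 2 WT unstimulated arrays was not well above background. The groups overlapped in both genotypes, with differences of 1.38 ± 1.20 and 1.45 ± 1.20. Rpl39 differed by -0.26 ± 0.31 and -0.64 ± 0.31.

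The remaining paralogs lay near 0. Rpl22l1, which in mice compensates for loss of Rpl22, differed by 0.18 ± 0.33 in KO cells and -0.14 ± 0.33 in WT cells. Rpl22 differed by -0.55 ± 0.32 and -0.58 ± 0.32. Rpl36al differed by -0.03 ± 0.25 and -0.13 ± 0.25, its partner Rpl36a by -0.19 ± 0.27 and -0.32 ± 0.27, and Rpl7l1 by -0.09 ± 0.28 and -0.25 ± 0.28. Rps19bp1, a nucleolar protein, differed by 0.31 ± 0.32 and 0.18 ± 0.32. None of these was called. The probes of the paralog pairs shared at most 6 bases in a row. They were set against each other only, so that pairing of a probe with the partner mRNA was not examined.

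**Figure D3:**
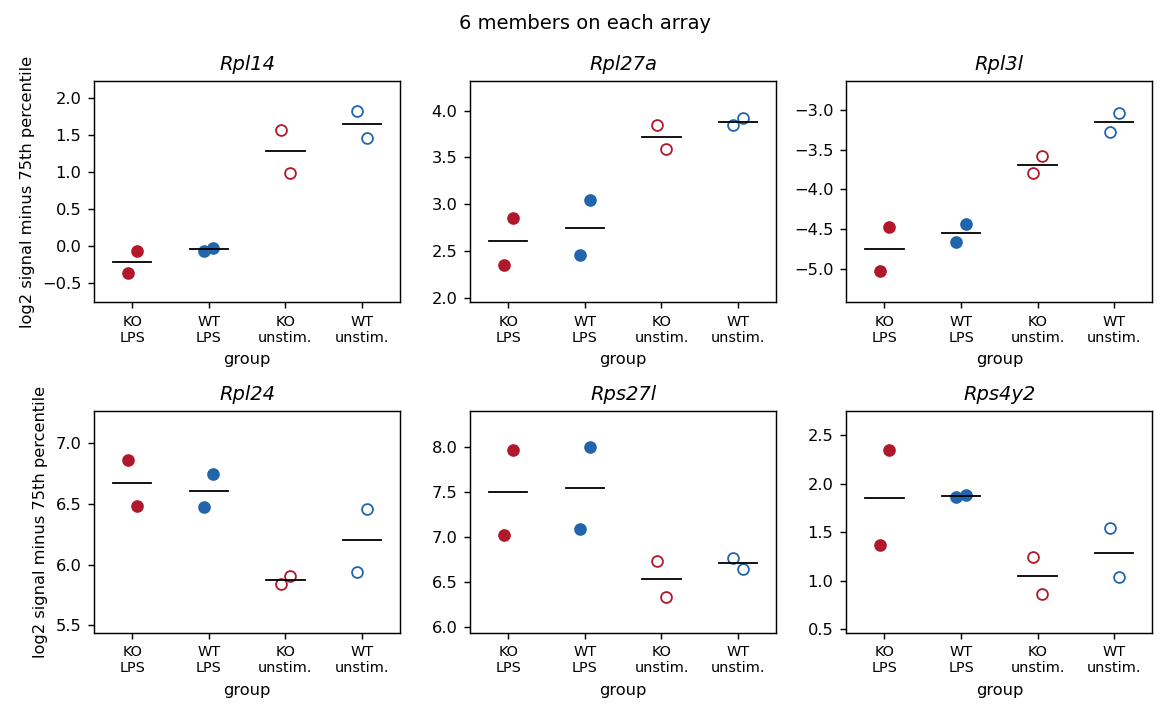
Scaled log2 signal (y axis) of 6 members on each array (points, 2 a group, black bars mark group means), with LPS groups filled and unstimulated groups open. Rpl14, Rpl27a and Rpl3l are lower on all LPS arrays than on all unstimulated arrays, and Rpl24, Rps27l and Rps4y2 lie higher after LPS in each genotype without passing the test.

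Scaling each array to the median of the 73 proteins of the large and small subunits asks how a member moved against them. This setting was chosen after seeing the data. The other names, among them the paralogs, did not enter that median. The scaling itself sets the median difference of the names near 0 and moves all genes the other way. All genes then shifted by 0.40 in KO cells and 0.54 in WT cells, and 12.7% were called higher and 5.77% lower in KO cells, 15.1% and 5.31% in WT cells. By limma 0 of the 82 names were called. On this scale Rps27l differed by 1.31 ± 0.42 in KO cells and 1.37 ± 0.42 in WT cells (limma adjusted p = 0.0674 and 0.0547), and Rpl24 by 1.15 ± 0.36 and 0.95 ± 0.36 (limma adjusted p = 0.0594 and 0.0972). Rpl14 differed by -1.14 ± 0.43 and -1.16 ± 0.43 on it.

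Of the 82 names, 40 had more than 1 probe past the filter, which allowed the brightest probe to be set against 49 others. The other probe differed in the same direction as the brightest for 37 of 49 in KO cells and 40 of 49 in WT cells. Fitted probe by probe, 9.84% of all probes were called lower after LPS in KO cells and 9.67% in WT cells. Among the 131 member probes 10 were called lower in KO cells and 8 in WT cells, and 0 higher by limma. Of the other probes 7 were called lower in KO cells and 5 in WT cells. Several genes thus had a called probe beside an uncalled brightest one. The WT calls include the other Rpl37 probe, which was not well above background on any WT array. Of the other probes 17 were over 10 times dimmer than the brightest. Among these 5 were called in either genotype, those of Rpl5, Rpl21, Rpl22, Rpl37 and Rps24.

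Rps24, a 40S protein whose mRNA is known for alternative 3′ ends, showed the widest disagreement. Its 3 probes lie in order along the plus strand of chromosome 14, the brightest split within chr14:25311322-25312647, probe A_52_P100002 at chr14:25314669-25314728 and probe A_52_P537084 at chr14:25315989-25316048 (mm9).
Rps24, brightest probe: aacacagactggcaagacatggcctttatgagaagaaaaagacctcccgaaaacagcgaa
Rps24, A_52_P100002: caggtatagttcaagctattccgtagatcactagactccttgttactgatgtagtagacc
Rps24, A_52_P537084: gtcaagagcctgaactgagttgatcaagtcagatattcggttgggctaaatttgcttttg
The last of these had -3.54 and -3.34 in KO LPS cells, against -1.26 and -1.56 in KO unstimulated cells. In WT cells it had -3.50 and -3.14 after LPS, against -1.26 and -1.22 unstimulated. All LPS arrays lay far below all unstimulated arrays, with differences of -2.03 ± 0.27 in KO cells and -2.08 ± 0.27 in WT cells (limma adjusted p = 0.00316 and 0.00323 over all probes). The brightest probe differed by -0.08 ± 0.30 and -0.17 ± 0.30, and A_52_P100002 by 0.32 ± 0.66 and 0.58 ± 0.66. By mean signal the brightest probe was 821 times brighter than A_52_P537084 and 990 times brighter than A_52_P100002. The 2 other probes are named by the files for cDNA clones and not for the RefSeq transcript of the brightest probe.

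Rpl5 and Rpl22 also had a called dimmer probe beside an uncalled brightest one. Both are known beyond the ribosome, Rpl22 through its loss in T-cell leukaemia. Unlike for Rps24, the brightest probe was lower too, by -0.61 and -0.63 for Rpl5 and -0.55 and -0.58 for Rpl22, in KO and WT cells. It was 87.8 times brighter than the other probe for Rpl5 and 37.4 times for Rpl22 by mean signal. The brightest Rpl5 probe is split within chr5:108332860-108333767 and the other lies at chr5:108337918-108337977, and the Rpl22 probes lie at chr4:151704158-151704217 and chr4:151708012-151708071 (mm9, plus strand).
Rpl5, brightest probe: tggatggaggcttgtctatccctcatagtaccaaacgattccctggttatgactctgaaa
Rpl5, other probe: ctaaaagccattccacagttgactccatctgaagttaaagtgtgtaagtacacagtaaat
Rpl22, brightest probe: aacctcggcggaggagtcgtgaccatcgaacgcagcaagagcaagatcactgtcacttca
Rpl22, other probe: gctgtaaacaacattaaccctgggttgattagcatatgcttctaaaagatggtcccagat
The other Rpl5 probe had -0.04 and -0.57 in KO LPS cells, against 1.51 and 0.69 in KO unstimulated cells, and in WT cells -0.27 and -0.38 after LPS, against 1.02 and 1.34 unstimulated. The groups did not overlap, and the differences were -1.41 ± 0.36 and -1.50 ± 0.36 (limma adjusted p = 0.0351 and 0.0290). The other Rpl22 probe differed by -1.15 ± 0.29 in KO cells and -1.34 ± 0.29 in WT cells (limma adjusted p = 0.0340 and 0.0202). Whether these probes lie in an exon of the main mRNA was not analysed here, since no annotation of mm9 was used.

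The other Rpl21 probe differed by -1.31 ± 0.37 in KO cells and -2.08 ± 0.37 in WT cells (limma adjusted p = 0.0482 and 0.0106), while the brightest differed by 0.20 ± 0.27 and 0.21 ± 0.27. The other probes of Rpl31 and Rps2 passed the test in KO cells, at -1.18 ± 0.33 and -0.88 ± 0.25, and missed it in WT cells at nearly the same values (-1.16 and -0.85, limma adjusted p = 0.0513 and 0.0528). The other Rpl37 probe was well above background only on the 2 KO unstimulated arrays and was at least 1.53-fold lower after LPS in KO cells. In WT cells it was below background in both states, so that no fold is given.

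**Figure D4:**
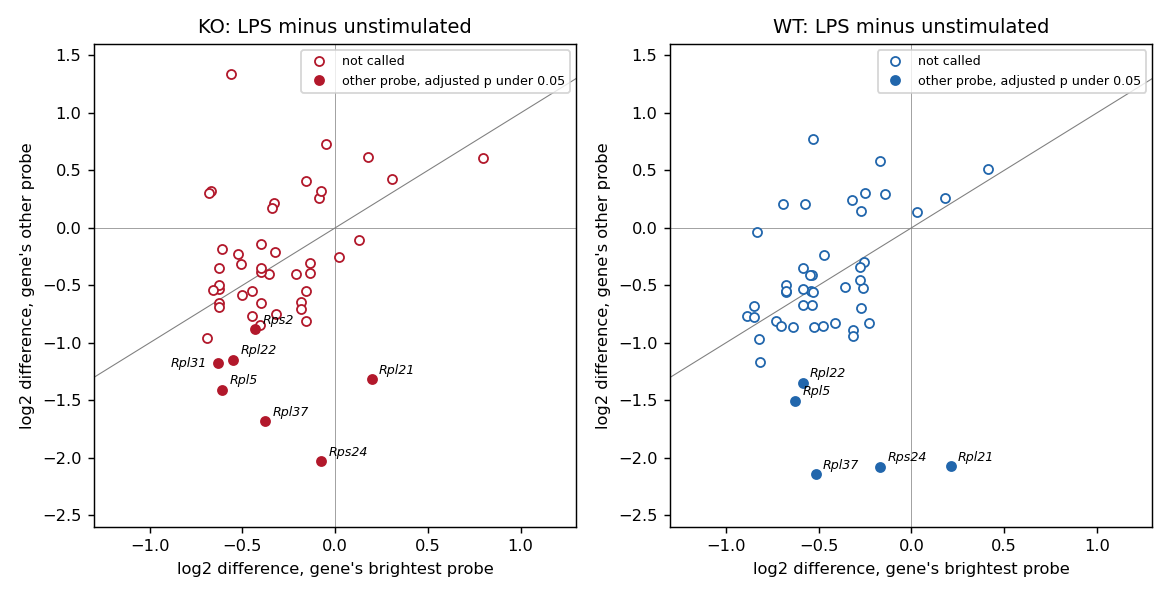
Log2 difference after LPS of a gene's brightest probe (x axis) against each of its other probes (y axis) for 49 probes of 40 genes, in KO cells (left) and WT cells (right), with the line of equality. Filled points are other probes with adjusted p under 0.05, 7 in KO cells and 5 in WT cells, and all lie below the line. The filled Rpl37 point in WT cells comes from a probe not well above background on any WT array.

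Because the ribosomal protein names moved together, their start sites were read from RefSeq (GRCm38.p6), which held 61 of the 82 names. Of these 10 had more than 1 start, and the first listed was used. A C at the annotated first base followed by at least 4 C or T, on the transcribed strand, was present in 11 of the 61 and in 2.49% of 27025 genes. Within 5 bases of the annotated start the shares were 44.3% and 18.5%, and on the other strand 13.1% and 21.0%. Windows of 40 bases, 20 before the start and 20 from it on, are shown in transcribed direction for some called and named members. Capitals mark a run from the first C within 5 bases of the start with at least 4 C or T after it. Further C or T letters can stand before the capitals, as in Rpl14 and Rps24. They lie at chr9:120571497-120571536 (Rpl14), chr7:109519175-109519214 (Rpl27a), chr7:45128726-45128765 (Rpl13a, minus strand), chr4:86857348-86857387 (Rps6, minus strand), chr14:24490658-24490697 (Rps24), chr9:66946066-66946105 (Rps27l) and chr16:55966255-55966294 (Rpl24), on the plus strand where none is named.
Rpl14: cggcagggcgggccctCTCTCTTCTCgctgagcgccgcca
Rpl27a: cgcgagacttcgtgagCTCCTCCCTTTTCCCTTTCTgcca
Rpl13a: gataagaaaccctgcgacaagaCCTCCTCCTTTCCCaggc
Rps6: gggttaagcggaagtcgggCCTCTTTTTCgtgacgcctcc
Rps24: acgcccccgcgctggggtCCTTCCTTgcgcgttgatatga
Rps27l: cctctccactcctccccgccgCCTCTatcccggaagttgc
Rpl24: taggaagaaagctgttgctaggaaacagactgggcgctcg
The window of Rpl24 held no such run. Nor did the starts of Rpl3l and Rpl5, which are not shown. These 2 differed after LPS by -1.06 and -0.61 in KO cells and by -1.39 and -0.63 in WT cells. The 27 members with a run had a median difference after LPS of -0.43 in KO cells and -0.64 in WT cells, and the 34 without had -0.35 and -0.52.

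From 250 bases before the start to 50 from it on, 4 short motifs were counted on either strand, each without regard to overlap with the others. CCGGAAG, the core of ETS family sites, stood in 37.7% of the 61 members and in 9.12% of all genes. AAGATGGC, the core of a YY1 site, stood in 8.2% and 2.88%. GGGCGG, an SP family core, stood in 59.0% and 35.9%, and TATAAA in 8.2% and 14.2%. A match is only a match of letters and says nothing of binding in these cells.

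No ribosomal protein name was called between genotypes. After LPS, the KO minus WT difference was negative for 72 of 82 names with a median of -0.11, and 0.026% of all genes were called in either direction. In unstimulated cells it was negative for 80 of 82 names with a median of -0.23, beside -0.04 over all genes, of which 0.24% were called. With quantile normalization it was negative for 57 names with a median of -0.05 in unstimulated cells, and for 61 names with a median of -0.05 after LPS. Averaged over both states the median was -0.17, with 0.143% of all genes called. By limma, 0 of the 82 names passed in each of these, and 0 at an unadjusted p under 0.05, with SEs of 0.25 to 1.20 for a single name in 1 state.

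The lean was no larger than the spread between arrays. The unstimulated WT arrays differed from each other in the median of the 82 names by more than the KO and WT groups did, and the KO minus WT median was -0.01 without WT unstimulated replicate 2 and -0.47 without WT unstimulated replicate 1. After LPS the sign of the median turned in the fits by slide. It was 0.02 with the slide as a block and 0.11 within the slide that held both KO LPS arrays and WT LPS replicate 1. The within-slide value is the same comparison as without WT LPS replicate 2, so that slide and single array cannot be told apart. In unstimulated cells the KO minus WT median was -0.11 with the slide as a block. It was -0.22 within the slide that held both WT arrays and KO replicate 2, the same comparison as without KO unstimulated replicate 1.

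The members at the ends of the order were Rpl22 after LPS at -0.29 ± 0.32 and Rpl3l in unstimulated cells at -0.53 ± 0.29. Rpl39l was highest in both states, at 1.07 ± 1.20 after LPS and 1.14 ± 1.20 in unstimulated cells. Next came Rpl21, at 0.20 ± 0.27 and 0.22 ± 0.27. The groups of Rpl3l did not overlap in unstimulated cells, and the difference was not called.

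The LPS responses themselves were compared between genotypes through the interaction term, where 0.0455% of all genes and 0 of the 82 names were called by limma, with 0 at an unadjusted p under 0.05. The KO response minus the WT response was positive for 74 of 82 names with a median of 0.12, beside 0.05 over all genes. With quantile normalization it was positive for 37 names, with a median of -0.01, and with the array median for 51 names, with a median of 0.03. Under the 75th percentile it ranged from -0.10 to 0.39, the highest being Rpl24 at 0.39 ± 0.42. Both responses rest on separate arrays, and the median was -0.11 without WT unstimulated replicate 2 and 0.36 without WT unstimulated replicate 1, the ends of the range over single arrays left out.

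Of 7 ribosomal proteins outside the name rule 6 were negative after LPS in KO cells and 7 in WT cells, with medians of -0.15 and -0.35. The stalk proteins Rplp0, Rplp1 and Rplp2, which recruit elongation factors, differed by -0.01, 0.08 and -0.04 in KO cells and by -0.03, -0.08 and -0.05 in WT cells. Rpsa, the laminin receptor form of a 40S protein, had 5.06 and 5.32 in KO LPS cells, against 5.97 and 6.28 in KO unstimulated cells, and 5.03 and 5.81 in WT LPS cells, against 6.17 and 6.45 in WT unstimulated cells. Its groups did not overlap, and its differences of -0.94 ± 0.34 and -0.89 ± 0.34 were not called (limma adjusted p = 0.0960 and 0.111). Fau, which is made as a fusion with a ubiquitin-like protein, and the scaffold protein Gnb2l1 differed by -0.15 and -0.27 in KO cells and by -0.40 and -0.35 in WT cells. By limma 0 of the 7 measured genes of this list passed the test.

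Other mRNAs known to carry a TOP tract leaned the same way as the ribosomal proteins. The list held translation factors and some other genes. Of its 18 measured genes 15 were negative in KO cells and 16 in WT cells, with medians of -0.44 and -0.61. By limma 0 of them were called, beside 10.5% of all genes called lower in KO cells and 10.7% in WT cells. The 28 initiation and release factors had medians of 0.07 and 0.08, with 0 called by limma. The lists were put together with earlier results of these data known, and their differences were not tested against each other.

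Of 66 biogenesis factors, 2 rose and 2 fell in KO cells, and 2 rose and 3 fell in WT cells, with medians of -0.18 and -0.11. All genes were called higher in 10.4% and lower in 10.5% in KO cells, and in 9.48% and 10.7% in WT cells. Rcl1, an endonuclease of 18S rRNA processing, rose by 4.12 ± 0.34 in KO cells and 4.20 ± 0.34 in WT cells, and Sbds, which frees the 60S subunit for joining, rose by 1.82 ± 0.34 and 1.56 ± 0.34. Wdr12, a 60S assembly factor, fell by 1.64 ± 0.33 and 1.55 ± 0.33. Nob1, a nuclease of 18S rRNA maturation, fell by 0.96 ± 0.27 in KO cells, and Heatr1 and Wdr3, of the 40S precursor, fell by 0.98 ± 0.27 and 1.04 ± 0.25 in WT cells. Of 22 RNA polymerase I and III genes 2 fell in each genotype, a share near that over all genes. Polr3g, a subunit of RNA polymerase III, fell by 3.24 ± 0.42 in KO cells and 2.89 ± 0.42 in WT cells, and Gtf3a, the factor for 5S rRNA genes, by 1.38 ± 0.26 and 1.17 ± 0.26.

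Of 27 genes of the mTORC1, S6 kinase and MYC list, 5 fell in each genotype and 0 rose by limma. Over all genes 10.5% and 10.7% were called lower and 10.4% and 9.48% higher, in KO and WT cells. Myc, a transcription factor for ribosome synthesis, fell by 4.06 ± 0.80 in KO cells and 3.70 ± 0.80 in WT cells. Eef2k, the kinase that slows elongation, was not well above background on any LPS array and was at least 10.9-fold lower after LPS in KO cells and at least 11.8-fold lower in WT cells. Sesn1, a brake on mTORC1, fell by 2.21 ± 0.45 and 2.52 ± 0.45, and Eif4ebp2, a repressor of cap-dependent initiation, by 1.80 ± 0.40 and 1.45 ± 0.40. The kinase Rps6ka1 fell by 1.46 ± 0.38 and 1.36 ± 0.38. By limma, 0 genes of any of these lists were called between genotypes.

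**Figure D5:**
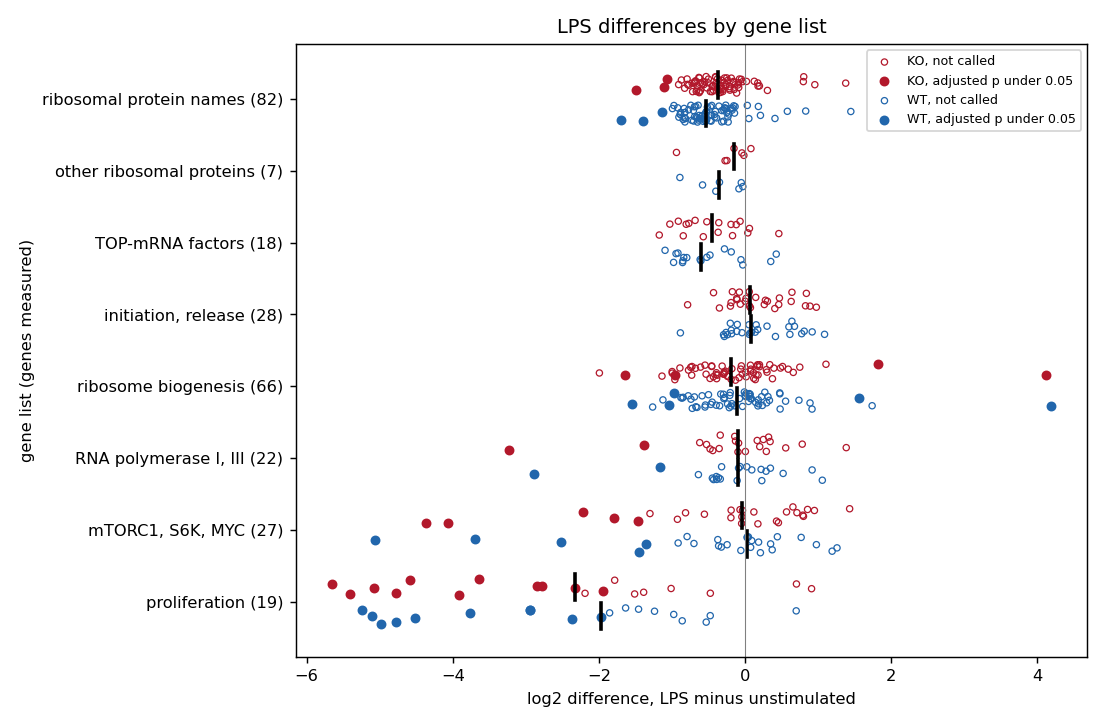
Log2 difference after LPS (x axis) of every measured gene of 8 lists (y axis, number of genes in brackets) in KO cells (red) and WT cells (blue), with filled points at adjusted p under 0.05 and black bars at the median. The ribosomal protein and TOP-mRNA lists lie a little left of 0 with few or no filled points, and the proliferation list lies furthest left with 11 filled points in KO cells and 10 in WT cells. Over all genes 10.5% and 10.7% were called lower in KO and WT cells.

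Cell division genes and markers of other cells moved with LPS beside the ribosomal proteins. For the counts below, 10.5% and 10.7% of all genes were called lower and 10.4% and 9.48% higher, in KO and WT cells. Of 19 proliferation genes 11 fell in KO cells and 10 in WT cells, with medians of -2.32 and -1.96. Ccnb2, a mitotic cyclin, fell by 5.08 ± 0.67 and 5.24 ± 0.67, and the mitotic kinase Plk1 by 4.78 ± 0.66 and 4.78 ± 0.66. The summed linear signal of 6 mast cell and basophil markers was 0.117 to 0.175 in KO LPS cells and 0.112 to 0.170 in WT LPS cells, against 1.08 to 1.95 in KO and 0.890 to 3.46 in WT unstimulated cells. The same sum for 5 stromal markers was 5.22 to 14.0 and 4.34 to 8.21 after LPS, against 0.273 to 0.695 and 0.266 to 0.594 unstimulated, in KO and WT cells. Mcpt8 and Cpa3, which define mast cells and basophils, were not well above background on any LPS array. Dcn and Lum, which define stromal cells, were not well above background on any unstimulated array. Of 4 plasmacytoid dendritic cell markers 3 rose in each genotype, among them interferon-induced genes, with sums of 234 to 331 in KO LPS cells and 316 to 381 in WT LPS cells, against 14.5 to 17 in KO and 25.4 to 25.5 in WT unstimulated cells. Of 9 macrophage markers 5 fell in each genotype and 1 rose in KO cells, with sums of 151 to 263 in KO LPS cells and 175 to 202 in WT LPS cells, against 204 to 282 in KO and 199 to 295 in WT unstimulated cells. Of 6 monocyte markers 3 fell in each genotype and of 3 NK cell markers 2. The part of these cells in the ribosomal protein values was not tested.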

How the data were processed

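RNA of 8 samples, 2 a group, was measured on one-colour Agilent arrays, and the scanned spots were quantified with Agilent Feature Extraction 10.5.1.1, per the file headers. The processed intensity of each spot was already corrected for background, per the file headers. The deposited series table holds log2 values of the same arrays, which the authors shifted by 1 constant per array to a 75th percentile of 9.19; all probes agreed within 0.01 with log2 of the scanner values, and this table served as an alternative. From the scanner files, log2 of the processed signal minus the array's 75th percentile was computed, spots with an outlier flag were left out (120 to 174 an array, among them Rpl19 on KO unstimulated replicate 1), spots of 1 probe were averaged and the brightest probe stood for a gene name. Means of the 4 groups were fitted with limma 3.58.1 in R 4.3.3 (4 residual degrees of freedom), with Benjamini-Hochberg adjustment over all genes and a threshold of 0.05. The fit was tested on simulated data.

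Members and gene lists were chosen with earlier results of these data known. Named are the called members, the 3 highest and lowest, a set of paralogs, their partners and proteins with known extra tasks, ribosomal proteins outside the name rule and up to 4 called genes of each list. Gene names are those of the array, and 76 of the 82 matched RefSeq by accession. Probe positions are those of the files (mm9), and promoters and the miRNA are from RefSeq (GRCm38.p6). With 2 arrays a group, their number limits the precision. Alternatives were other scalings, normexp background correction, filters on dim probes, the rule for several probes, the slide or the replicate number as a block, fewer arrays, and arrays left out singly. Replicate numbers were not taken as pairs, since the labels tie them to no animal or culture.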

Additional observations from a re-analysis of the deposited data

How the results depend on the processing

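After LPS in KO cells, 3 ribosomal protein names were called as reported. There 5 were called with the median of each array, 18 with quantile normalization and 0 with normexp. Without a filter on dim probes 1 was called, with the slide as a block 1, and from only the 4 arrays compared 1. With the arrays scaled to the median of the 73 subunit proteins (chosen after seeing the data) 0 were called. With single arrays of the comparison left out, or within 1 slide, fewer members and fewer of all genes were called. In WT cells 3 were called, and 16 with quantile normalization, 0 with normexp and 6 with the mean over probes. With the slide as a block 1 was called, and with the scaling to the 73 subunit proteins 0. In WT cells too, fewer members and fewer of all genes were called with single arrays of the comparison left out or within 1 slide. All genes called lower made up 12.4% (array median, KO), 12.2% and 11.8% (quantile, KO and WT) and 13.6% and 14.3% (replicate block, KO and WT), beside 10.5% and 10.7% as reported. They made up 2.31% and 1.75% with normexp and 7.03% and 7.05% with the slide as a block, in KO and WT cells. In KO cells they made up 4.52% without the filter and 7.94% from only the 4 arrays compared. In WT cells they made up 10.7% with the mean over probes. With the replicate number as a block, 7 were called in KO cells and 15 in WT cells; deviations of same-numbered arrays correlated at 0.0131 to 0.692 over 6 pairs of groups, with only 2 numbers, so that the block is no evidence of pairing. Between genotypes, 0 names were called by limma under each alternative run. The median LPS difference in KO cells was -0.76 with quantile normalization, -1.18 with normexp and -0.020 with the scaling to the 73 subunit proteins. In WT cells it was 0.0024 with that scaling, which itself sets the median near 0. With normexp the median was -0.90 for KO against WT after LPS, -0.53 averaged over states and -0.70 for the difference between LPS responses. With the scaling to the 73 subunit proteins it was 0.045 for KO against WT in unstimulated cells. Normexp left KO LPS replicate 2 with a median of -0.25 on the scaled log2 signal, against -2.95 to -2.55 on the other arrays; the cause was not tested. With single arrays left out, the medians ran from -0.50 to -0.25 (LPS, KO), -0.76 to -0.26 (LPS, WT), -0.35 to 0.11 (KO against WT after LPS), -0.47 to -0.01 (unstimulated), -0.29 to -0.06 (averaged) and -0.11 to 0.36 (difference between LPS responses). Over all genes, 3208 were called after LPS in KO cells and 3106 in WT cells, against 936 and 687 with normexp and 441 and 1533 within 1 slide.

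Single names turned sign under some alternatives, and the cause was not tested. In KO cells after LPS these were Rpl22l1 (-0.0056 with the array median, -0.094 with quantile normalization, -0.56 with normexp), Rpl3l (1.11) and Rps19bp1 (-0.49) with normexp, Rpl7l1 (0.086) and Rpl11 (0.34) with the mean over probes, Rpl11 (0.050) and Rps27 (0.14) with the slide as a block, and Rps27 within 1 slide (0.054). With single arrays left out, Rpl7l1 ran from -0.22 to 0.049, Rps27 from -0.25 to 0.054, Rpl36al from -0.14 to 0.080 and Rpl11 from -0.13 to 0.033. In WT cells after LPS these were Rpl36al with normexp (0.064), Rpl7l1 (0.025) and Rpl22l1 (0.077) with the mean over probes, Rpl22l1 (0.014) and Rps27 (0.084) with the slide as a block, and Rpl22l1 (0.0026) and Rps27 (0.17) within 1 slide. With single arrays left out, Rpl22l1 ran from -0.53 to 0.25, Rps27 from -0.60 to 0.29 and Rps19bp1 from -0.10 to 0.47. For KO against WT after LPS, Rpl21 was -0.45 with normexp, Rpl22 0.021 and Rpl39l -0.011 within 1 slide, and with single arrays left out Rpl39l ran from -0.21 to 2.34 and Rpl22 from -0.61 to 0.021. In unstimulated cells Rpl21 was -0.14 with the mean over probes, and Rpl39l ran from -0.056 to 2.33 with single arrays left out.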
